A study of Mus musculus with 4 samples.

Results

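The Ly49 receptors are a family of lectin-like receptors encoded by the Klra genes of the mouse. The 10 genes described here, Klra1, Klra3, Klra4, Klra5, Klra6, Klra7, Klra8, Klra9, Klra10 and Klra17, were taken by symbol from a table of 35798 named genes, and all 10 were found and passed the filter on low counts that left 13822 genes for testing. The table held 4 further Klra rows (Klra2, Klra11-ps, Klra13-ps and Klra14-ps), which are reported beside the members. The libraries came from NK cells carrying Ly49H, the product of Klra8, that had been transferred into NSG mice and recovered from the spleen by sorting on D3.5 after infection with murine cytomegalovirus (MCMV), which was given 1 day after the transfer. There were 2 libraries of wild-type cells with the CD45.1 allele and 2 of TNFR2 KO cells with the CD45.2 allele, and both genotypes shared the same hosts, the infection and the gate on Ly49H. The mice used by the study were 6 to 12 weeks old. Same-numbered wild-type and TNFR2 KO libraries came from one pool of spleens from 3 hosts. The paper describes 1 experiment in duplicate, with a pooled spleen sample from 3 infected mice. The sources used here do not say whether libraries numbered 1 and 2 came from different pools or different mice. The p-values therefore measure only the spread between these libraries, which may be technical. NSG hosts lack T, B and NK cells of their own but keep myeloid cells, and their NOD background carries the CD45.1 allele. Genotype, CD45 allele and gate changed together in this design and cannot be told apart.

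Ly49 receptors sit on the cell surface as pairs of chains and bind class I MHC molecules or, for some members, viral proteins. Inhibitory members carry an immunoreceptor tyrosine-based inhibitory motif (ITIM) near the start of the protein, which recruits phosphatases such as SHP-1. Activating members lack this motif and instead carry a charged residue in the membrane-spanning part, through which they pair with the adaptors DAP12 and DAP10. On mouse NK cells different members are switched on in overlapping subsets of cells. Ly49H is known for binding the MCMV protein m157, and NK cells that carry it expand after MCMV infection.

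The class of each member could be read from its coding sequence. The first 39 coding bases are shown for the most abundant inhibitory member, for the activating members and for the member best known from myeloid cells, with the ITIM codons (codons 6 to 11) in capitals where they were found. Positions are on GRCm38 (GENCODE M21), minus strand.
Klra7, chr6:130231579-130231617: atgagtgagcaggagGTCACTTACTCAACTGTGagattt
Klra17, chr6:129874869-129874907: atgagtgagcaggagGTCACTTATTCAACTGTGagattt
Klra8, chr6:130128122-130128160: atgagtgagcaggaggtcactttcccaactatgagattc
Klra4, chr6:130065264-130065302: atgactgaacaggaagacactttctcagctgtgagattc
The motif was present in Klra1, Klra3, Klra5, Klra6, Klra7, Klra9, Klra10 and Klra17, and was not found in Klra4 or Klra8. The stretch of codons 50 to 64, in the membrane-spanning part, is shown for the same activating genes and for Klra7, with the codon of a charged residue in capitals.
Klra8, chr6:130126233-130126277: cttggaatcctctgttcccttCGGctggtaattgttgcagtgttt
Klra4, chr6:130063116-130063160: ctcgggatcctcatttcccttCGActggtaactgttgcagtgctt
Klra7, chr6:130229945-130229989: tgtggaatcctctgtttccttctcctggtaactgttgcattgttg
Both activating genes held an arginine codon at codon 57, and none of the other 8 members held a codon for a charged residue in this stretch.

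The libraries held 32713256 to 39543650 estimated counts, and duplicates differed by more than counting noise (mean chi-square per gene 3.29 between the wild-type and 3.49 between the TNFR2 KO libraries). The targeted gene Tnfrsf1b, which encodes TNFR2, was at 265 and 269 CPM (the count per unit of library size, after edgeR's TMM scaling for library makeup) in wild-type cells against 55.1 and 58.6 CPM in TNFR2 KO cells, for a log2-fold change of -2.23 ± 0.0352 (SE). Of the NK markers, Ncr1 was at 257 ± 1.98 CPM (SD, n = 2) in wild-type against 511 ± 0.527 CPM in TNFR2 KO cells. Of the 36 tested genes of the NK lineage list, 34 were higher in TNFR2 KO cells at an adjusted p under 0.05 (median log2-fold change 0.65, against 0.00 over all genes tested). Of these, 5 also had a log2-fold change over 1 and so were called higher. Of the macrophage and monocyte markers, 23 of 24 were lower (median -2.89), and their summed level was 3034 to 3040 CPM in wild-type cells against 1080 to 1108 CPM in TNFR2 KO cells, with Csf1r at 254 and 256 against 27.4 and 26.7 CPM. All 17 tested markers of neutrophils and their precursors were lower as well (median -2.29; summed level 1051 to 1068 and 102 to 106 CPM), with Mpo at 356 and 361 CPM in wild-type cells against 3.98 and 3.93 CPM in TNFR2 KO cells. Of the mast cell and basophil markers 11 of 13 were lower and 1 was higher, with a summed level of 1436 to 1440 and 123 to 125 CPM. Of the B cell markers 4 of 10 passed the filter, and none of these was called (2 were higher and 1 lower at an adjusted p under 0.05). None of 11 T cell markers was called either (2 were higher and 6 lower at the same adjusted p), with Cd3e at 119 and 120 against 99.1 and 101 CPM, while 8 of 12 tested dendritic cell and class II genes, 8 of 11 erythroid, 7 of 8 platelet and 3 of 6 stromal markers were called lower (1 or 2 stromal markers with any library left out). Of the dendritic cell and class II genes, 1 was called higher (Itgax, log2-fold change 1.11). Over all genes tested, 1.56% were called higher and 11.8% lower, and 24.2% were higher and 26.2% lower at an adjusted p under 0.05. In bulk RNA, fewer cells of a type and less RNA per cell cannot be told apart.

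Under TMM scaling the Ly49 family was at a higher level in the TNFR2 KO libraries. The 10 members summed to 1313 and 1292 CPM in wild-type cells against 2944 and 2872 CPM in TNFR2 KO cells, a ratio of 2.23. The log2 ratio of this sum, 1.16 under TMM, was 0.39 and 0.49 under the scalings on NK lineage genes described below. With edgeR's quasi-likelihood test and Benjamini-Hochberg adjustment over all 13822 genes, 6 of 10 members (Klra3, Klra4, Klra5, Klra7, Klra8 and Klra9) were called higher (adjusted p below 0.05 together with a log2-fold change beyond 1 in size), where 1.56% of all genes tested were called higher. Klra17 alone among the members was called lower, where 11.8% of all genes were. At an adjusted p under 0.05 alone, 8 members were higher (24.2% of all genes) and 1 was lower (26.2%). Both TNFR2 KO libraries were above both wild-type libraries for 8 members (36.4% of all genes) and below both for 1 (37.7%). The median log2-fold change of the members was 1.16. These shares describe a list chosen with earlier results of the data known, and no test of the list was made. The summed member level moved in the direction of the NK lineage genes and against the myeloid markers given above. Klra17 was lower instead, and the groups of Klra10 overlapped. The part of the NK lineage genes and myeloid markers in the members' differences was not tested.

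**Figure D1:**
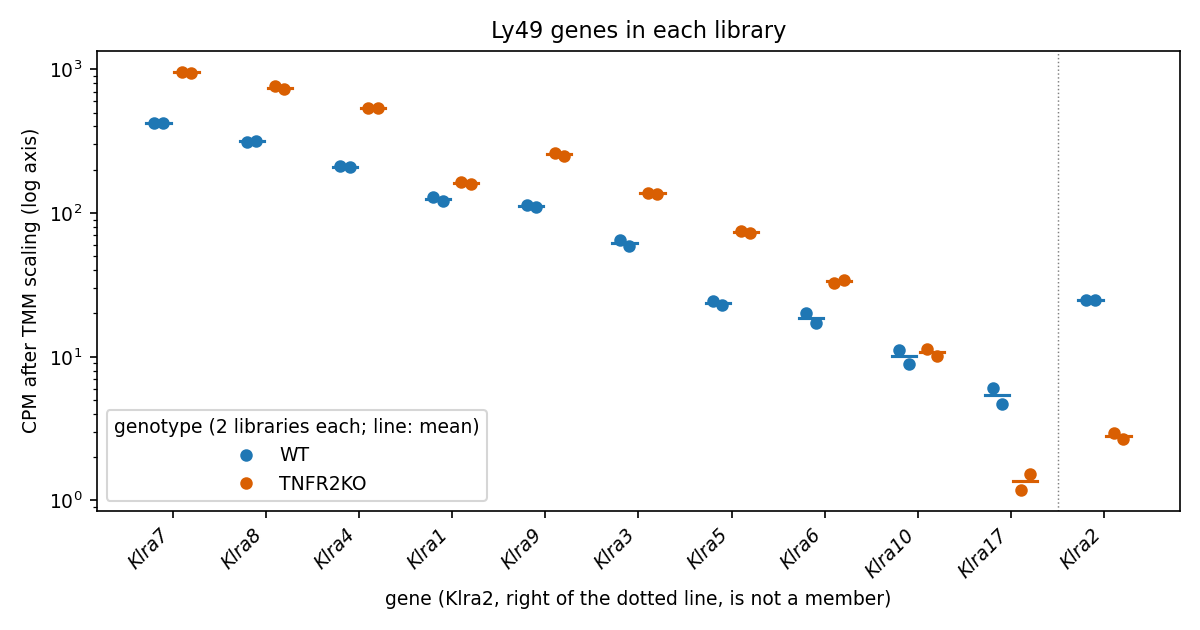
CPM after TMM scaling (log axis) of the 10 Ly49 members, ordered by their wild-type mean, and of Klra2; points are single libraries and lines the means of 2 libraries per genotype. The TNFR2 KO points of 8 members lie above both wild-type points, those of Klra10 overlap, and those of Klra17 and Klra2 lie below.

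The activating members Klra8 and Klra4 were both higher in TNFR2 KO cells. Klra8 (ENSMUSG00000089727.2) encodes Ly49H, on which every library was sorted. It was at 313 and 316 CPM in wild-type cells against 762 and 726 CPM in TNFR2 KO cells. The groups were far apart, with a log2-fold change of 1.24 ± 0.0281 (SE, edgeR adjusted p = 2.68e-12), a 2.37-fold difference under TMM scaling. The sorted cells of every library had passed the same gate for the protein. Under the NK lineage scalings described below, the log2-fold change of Klra8 was 0.57 (medians) and 0.47 (total), and Klra8 was not called. Klra4 encodes Ly49D, an activating receptor that recognizes the class I molecule H-2Dd. It was at 211 and 210 CPM in wild-type cells against 535 and 541 CPM in TNFR2 KO cells, for a log2-fold change equal to 1.35 ± 0.0250 (adjusted p = 5.07e-13).

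The inhibitory members of NK cells covered a wider range of changes. Klra7, which encodes Ly49G2, was the most abundant of the family by CPM in all 4 libraries, with 420 and 422 CPM in wild-type cells against 963 and 942 CPM in TNFR2 KO cells. Its log2-fold change was 1.18 ± 0.0238 (edgeR adjusted p = 1.04e-12). Klra9 (Ly49I) and Klra3 (Ly49C), which is known to bind the H-2Kb molecule of C57BL/6 mice, had similar log2-fold changes. Klra9 was at 113 and 109 CPM in wild-type cells against 261 and 251 CPM in TNFR2 KO cells, for a log2-fold change equal to 1.20 ± 0.0321 (adjusted p = 1.30e-11). Klra3 was at 64.4 and 59.2 CPM against 138 and 136 CPM, a log2-fold change equal to 1.15 ± 0.0420 (adjusted p = 2.94e-10). In each of these genes both TNFR2 KO libraries were above both wild-type libraries.

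Klra5, which encodes Ly49E, had the largest increase of the members. It was a low member in wild-type cells, with 24.5 and 22.9 CPM, and reached 75.5 and 72.4 CPM in TNFR2 KO cells, for a log2-fold change equal to 1.64 ± 0.0520 (edgeR adjusted p = 7.40e-11). Klra6, which encodes Ly49F, was at 20.2 and 17.2 CPM in wild-type cells against 32.7 and 34.4 CPM in TNFR2 KO cells. It was higher by a log2-fold change equal to 0.84 ± 0.0747 (adjusted p = 1.37e-06), which is under the fold threshold.

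Klra1 and Klra10 departed from this pattern. Klra1 encodes Ly49A, the founding member of the family and a receptor for H-2Dd. It was at 129 and 122 CPM in wild-type cells against 165 and 159 CPM in TNFR2 KO cells, for a log2-fold change equal to 0.37 ± 0.0356 (edgeR adjusted p = 2.77e-06) that turned to -0.30 and -0.40 under the scalings on NK lineage genes described below. Klra10 (Ly49J) was at 11.2 and 8.90 CPM in wild-type cells against 11.4 and 10.1 CPM in TNFR2 KO cells, so the groups overlapped. Its log2-fold change was 0.10 ± 0.126 with a 95% confidence interval from -0.18 to 0.37 (adjusted p = 0.56); it was -0.05 without WT replicate 2 and -0.57 and -0.68 under the NK lineage scalings.

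Klra17, the member best known from plasmacytoid dendritic cells and other myeloid cells, where it encodes Ly49Q, went the other way. It had 230 and 173 counts in wild-type and 46 and 49 counts in TNFR2 KO libraries, or 6.06 and 4.69 CPM against 1.19 and 1.53 CPM. Its log2-fold change was -1.99 ± 0.213 (edgeR adjusted p = 7.33e-06), a 3.98-fold lower level. Klra2, which is not a member of the list and encodes Ly49B, a receptor of myeloid cells, was at 24.8 and 24.7 CPM in wild-type cells against 2.95 and 2.68 CPM in TNFR2 KO cells, for a log2-fold change equal to -3.13 ± 0.102 (adjusted p = 9.63e-11). Both genes moved in the direction of the macrophage and neutrophil lists. The plasmacytoid dendritic cell list had 2 of 13 tested genes called lower and none higher (median -0.37), where 11.8% of all genes were called lower. Siglech, a defining marker of plasmacytoid dendritic cells, was under 1 CPM in every library, with 30 and 32 counts in wild-type and 25 and 18 counts in TNFR2 KO libraries. The part of other cell types in the levels of Klra17 and Klra2 was not tested.

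The size of the differences depended on what was held level between the libraries. When libraries were scaled on the total of the NK lineage genes, which is dominated by the granzymes Gzma and Gzmb, the log2-fold change of the median gene moved by -0.78. When they were scaled on the median ratio of those genes, a choice made after seeing the data, it moved by -0.67. Both scalings hold the NK lineage genes about level by construction. Under each, no member was called higher past both thresholds (0.217% and 0.311% of all genes were), and Klra17 was called lower (27.0% and 22.5%). Klra3, Klra4, Klra5, Klra7, Klra8 and Klra9 were higher at an adjusted p under 0.05 under both (1.06% and 1.59% of all genes), and Klra1, Klra10 and Klra17 were lower (86.8% and 84.0%). With the median scaling the log2-fold change was 0.98 for Klra5, 0.69 for Klra4, 0.57 for Klra8, 0.54 for Klra9, 0.51 for Klra7 and 0.48 for Klra3. Klra6 was at 0.17 with a confidence interval from 0.01 to 0.34 (edgeR adjusted p = 0.0517).

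**Figure D2:**
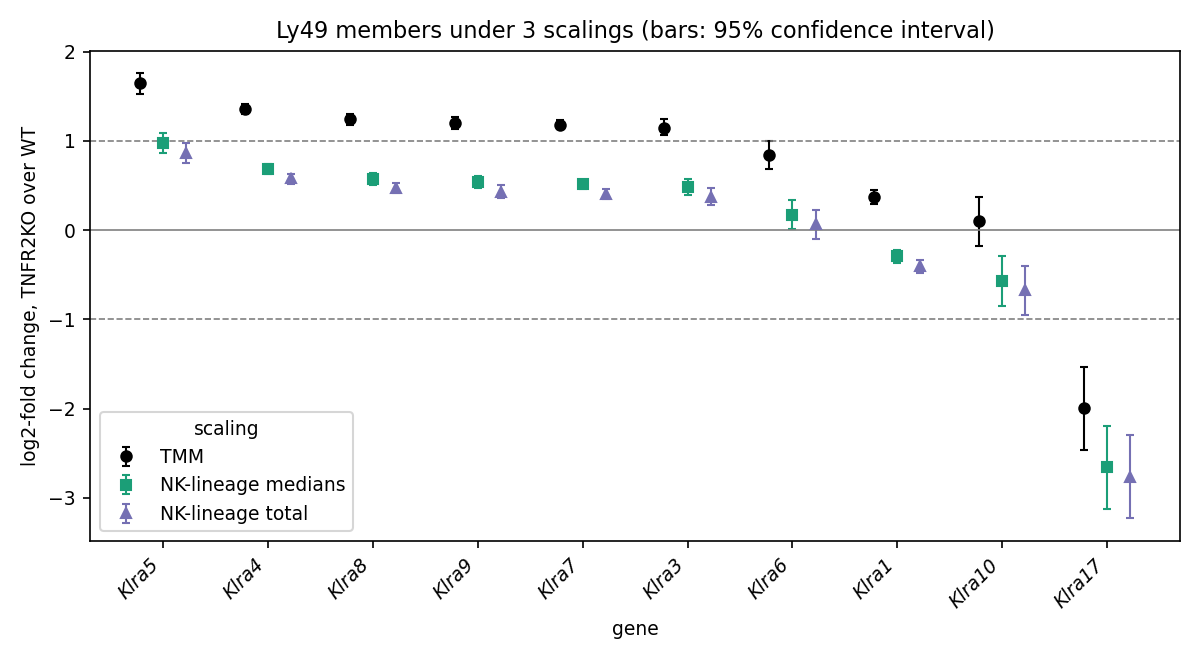
Log2-fold changes (TNFR2 KO over wild-type) of the 10 members with 95% confidence intervals under TMM scaling, scaling on the median ratio of NK lineage genes and scaling on their total; dashed lines mark the fold threshold. All members shift down together under the NK lineage scalings, Klra5 stays highest, Klra1 and Klra10 pass below 0 and Klra17 is lowest throughout.

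The makeup of the family does not depend on any scaling, since it is a ratio of counts within a library. Klra7 held 32.0% and 32.7% of the summed Ly49 counts in wild-type and 32.7% and 32.8% in TNFR2 KO libraries. Klra8 held 23.9% and 24.5% against 25.9% and 25.3%, and Klra4 held 16.1% and 16.2% against 18.2% and 18.8%. Klra9 held 8.61% and 8.47% against 8.87% and 8.74%, and Klra6 held 1.54% and 1.33% against 1.11% and 1.20%. Klra1 held 9.82% and 9.41% of the family in wild-type against 5.59% and 5.55% in TNFR2 KO libraries. Klra5 made up 1.87% and 1.77% of the family in wild-type and 2.56% and 2.52% in TNFR2 KO libraries. Klra10 was at 0.855% and 0.689% against 0.387% and 0.352%, and Klra17 at 0.462% and 0.363% against 0.0404% and 0.0532%. The shares of Klra3 overlapped between genotypes, at 4.91% and 4.59% against 4.70% and 4.72%.

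Counted against Klra8, the gene of the sorted receptor, Klra1 was at 0.412 and 0.385 counts per Klra8 count in wild-type and at 0.216 and 0.220 in TNFR2 KO libraries. Its log2-fold change differed from that of Klra8 by -0.87 ± 0.045 (SE of the difference, taking the errors as independent). For Klra5 the difference from Klra8 was 0.40 ± 0.059, for Klra4 0.11 ± 0.038, for Klra7 -0.06 ± 0.037 and for Klra9 -0.04 ± 0.043. The activating genes Klra4 and Klra8 together had 0.671 and 0.691 counts for each count of the 7 inhibitory genes of NK cells in wild-type and 0.788 and 0.789 in TNFR2 KO libraries. These differences within the family are descriptions and were not tested.

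**Figure D3:**
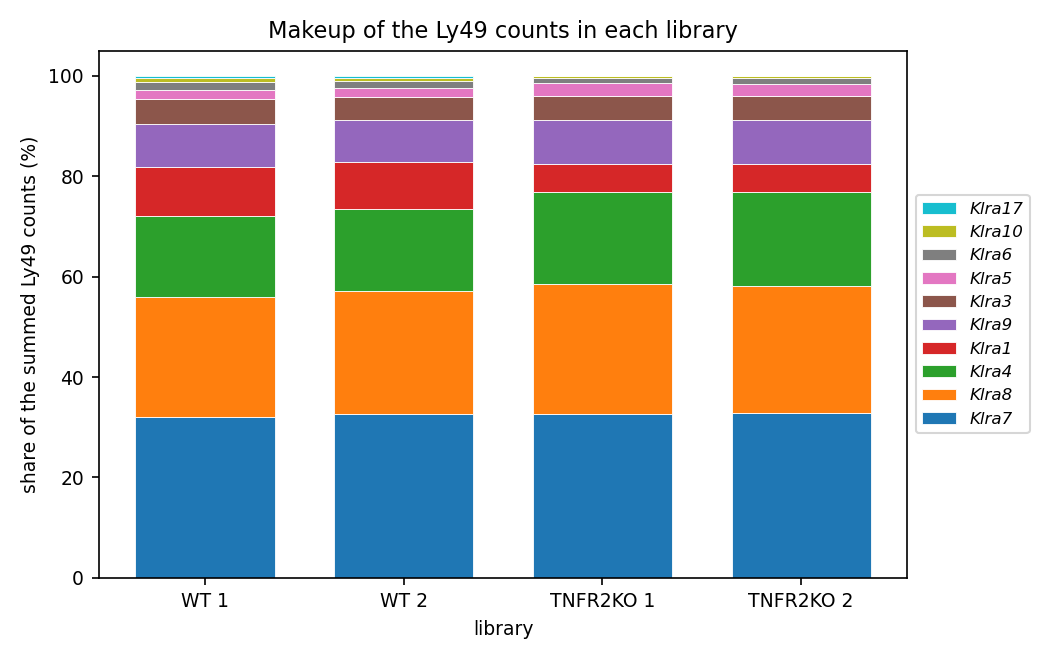
Share of the summed Ly49 counts (%) held by each member in each of the 4 libraries, stacked to the whole. Klra7, Klra8 and Klra4 make up most of every bar, and the band of Klra1 is narrower in both TNFR2 KO libraries (5.59% and 5.55%) than in the wild-type libraries (9.82% and 9.41%).

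To compare levels between genes, CPM was divided by the length of each gene's longest annotated transcript. In wild-type cells the order of levels was Klra7 at 381 ± 1.51 CPM per kb (SD, n = 2), Klra8 at 267 ± 1.56, Klra4 at 169 ± 0.908, Klra9 at 87.0 ± 2.01, Klra1 at 75.1 ± 3.11 and Klra3 at 49.9 ± 2.95 CPM per kb. Klra5, Klra6, Klra10 and Klra17 followed at 18.5 ± 0.900, 16.8 ± 1.92, 12.2 ± 2.01 and 4.52 ± 0.815 CPM per kb. The libraries of Klra5 and Klra6 overlapped, and no other neighbours in this order did. In TNFR2 KO cells Klra3, at 111 ± 1.66 CPM per kb, stood above Klra1, at 97.1 ± 2.16, and the order was otherwise the same. Klra7 remained first at 862 ± 13.5 CPM per kb and Klra17 last at 1.14 ± 0.202 CPM per kb. The most and the least abundant members of wild-type cells differ in level far more than any member differed between genotypes.

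Members resemble each other closely, and reads from shared stretches had to be divided between them when the counts were estimated. Of the 31-base stretches in the annotated transcripts of Klra10, 65.1% also occurred in another gene, most often Klra9 (40.5%). The share was 57.8% for Klra9, 55.0% for Klra8, 43.5% for Klra3, 24.7% for Klra7 and 17.5% for Klra4. It was 15.6% for Klra6, 11.4% for Klra5, 7.6% for Klra1 and 0.3% for Klra17, so the values of these rest mostly on sequence of their own. Coding sequences of Klra9 and Klra10 were 96.9% identical over 798 aligned bases, and those of Klra4 and Klra10, the least alike of the 10, 76.6%. The activating genes were not each other's closest relatives. Klra8 was 91.9% identical to the inhibitory Klra9, Klra4 was 88.3% identical to the inhibitory Klra1, and the pair Klra4 and Klra8 was 78.6% identical.

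**Figure D4:**
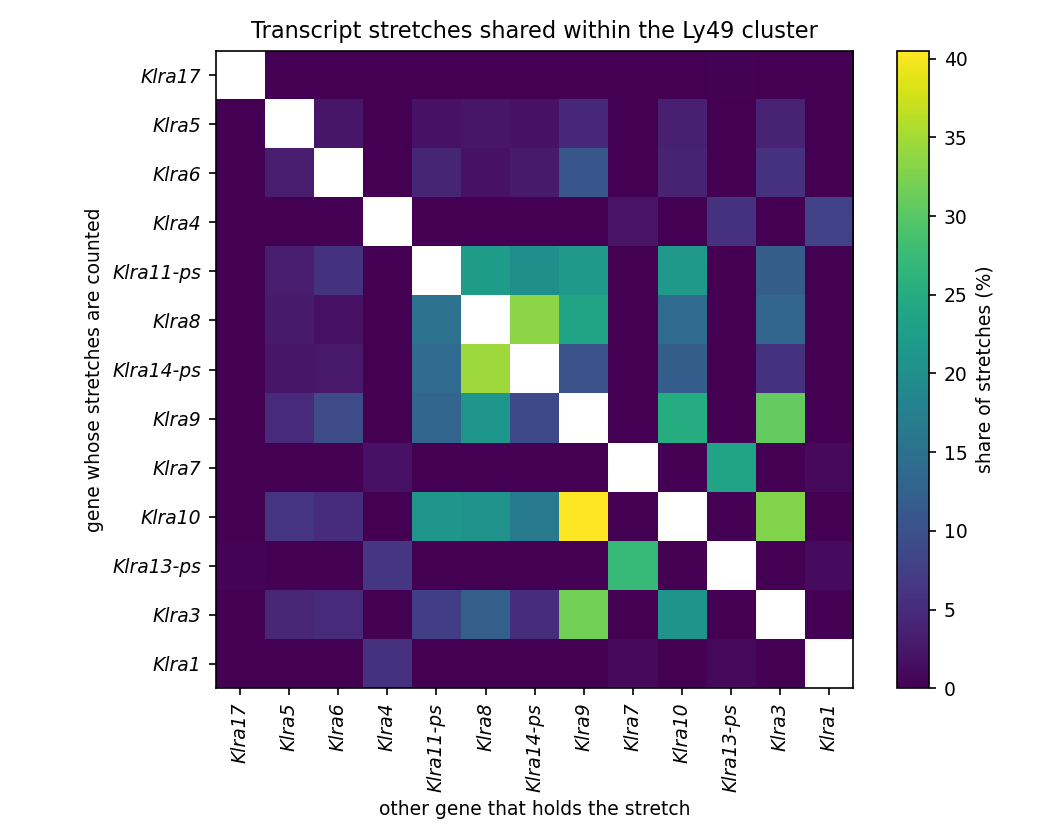
Share (%) of the 31-base transcript stretches of each Ly49 gene of the cluster (rows) that also occur in another gene of it (columns), in chromosomal order. The brightest cells are Klra10 with Klra9 (40.5%), Klra14-ps with Klra8 (34.5%) and Klra8 with Klra14-ps (33.4%), whereas the rows of Klra17 and Klra1 are dark.

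Sums over genes that share sequence are less open to this division. Klra3, Klra9 and Klra10 together were at 189 and 178 CPM in wild-type cells against 411 and 397 CPM in TNFR2 KO cells, a ratio of 2.21, although Klra10 on its own hardly differed. Klra8 with the pseudogenes Klra14-ps and Klra11-ps was at 321 and 325 CPM against 784 and 750 CPM, a ratio of 2.37, the same as for Klra8 alone. Klra8 itself held 315 of the mean 323 CPM in wild-type and 744 of 767 CPM in TNFR2 KO cells, so this ratio could hardly differ. The sum also leaves out Klra9, in which 23.7% of the Klra8 stretches occur. Klra7 with Klra13-ps had a ratio of 2.25, and Klra7 likewise held most of that sum (421 of 459 CPM in wild-type cells). The pseudogenes are rows of the table in their own right. Klra13-ps was at 36.4 and 39.3 CPM in wild-type cells against 81.6 and 83.0 CPM in TNFR2 KO cells (log2-fold change 1.12 ± 0.0467), Klra14-ps at 6.25 and 7.49 CPM against 19.4 and 21.2 CPM (1.56 ± 0.107), and Klra11-ps at 1.79 and 1.90 CPM against 2.71 and 2.97 CPM (0.62 ± 0.207; -0.05 and -0.15 under the NK lineage scalings). Their values are uncertain for the same reason.

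The 10 members lie in 1 cluster of 555.7 kb on the minus strand of chromosome 6 (chr6:129831154-130386874, GRCm38), from Klra17 at one end to Klra1 at the other, and Klra2 lies outside it (chr6:131219223-131247362). The members called higher lie between those ends. Klra17 is followed by Klra5 (log2-fold change 1.64), 67.8 kb away between lowest coordinates, so that the member that fell the most and the one that rose the most are next to each other. Beyond Klra17, within 200 kb, lie the receptor genes Klri2, Klri1, Klrc1, Klrc2 and Klrc3. Klrc1 and Klrc2 encode the inhibitory receptor NKG2A and the activating receptor NKG2C. Klrc1 was at 97.7 and 96.9 CPM in wild-type cells against 211 and 193 CPM in TNFR2 KO cells, for a log2-fold change equal to 1.06 ± 0.0404 (edgeR adjusted p = 4.48e-10), and Klrc2 had a log2-fold change of 1.06 ± 0.0377. Both lie close to the fold threshold. Neither was called with library size alone, and Klrc1 was not called without TNFR2KO replicate 1. Both were at 0.28 under the NK lineage total and at 0.39 with the scaling on NK lineage medians, and were not called there. Klrc3, Klri1 and Klri2 were higher by 0.69, 0.77 and 0.63 on the log2 scale under TMM; under the NK lineage total these values were -0.08, -0.01 and -0.15. The pseudogene Gm15854, between Klra5 and Klra6, was at 5.01 and 5.94 CPM in wild-type cells against 1.4 and 1.65 CPM in TNFR2 KO cells, for a log2-fold change equal to -1.85 ± 0.191 (adjusted p = 5.60e-06). The pseudogene Gm16242 was under 1 CPM in every library (adjusted p = 0.0536).

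**Figure D5:**
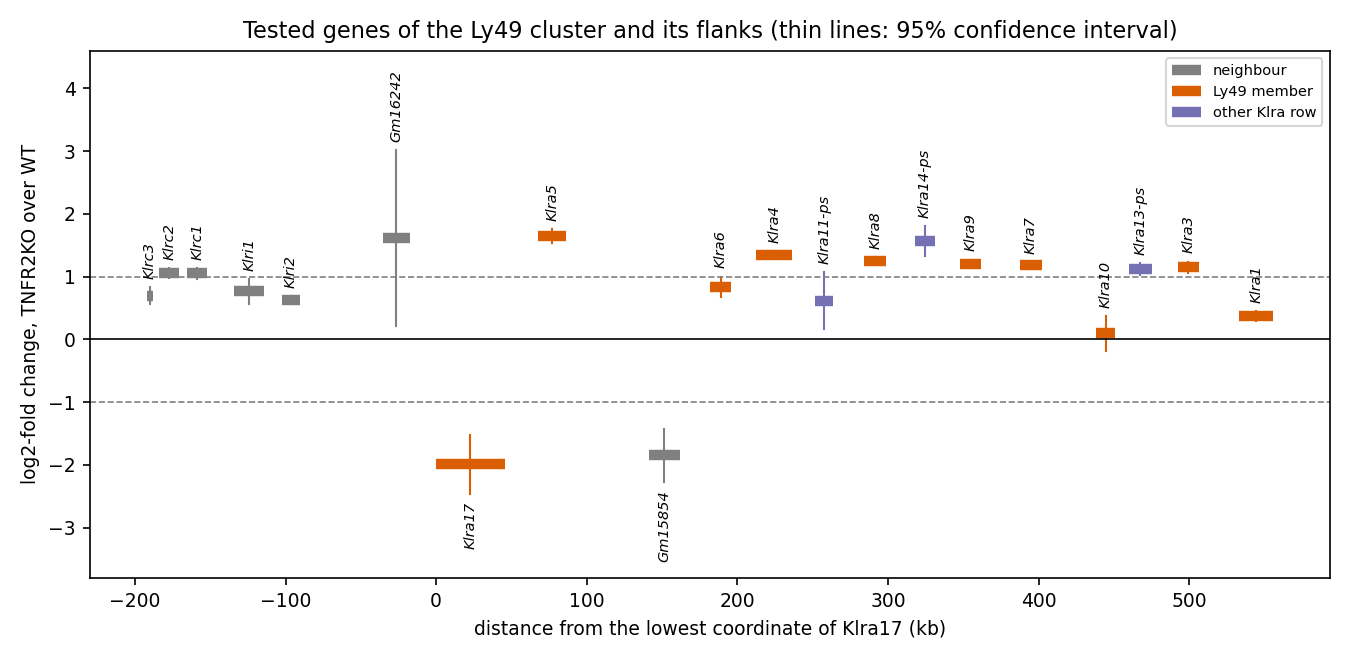
Log2-fold change (TNFR2 KO over wild-type, TMM scaling) of each tested gene of the Ly49 cluster and its flanks against its place on the chromosome, in kb from the lowest coordinate of Klra17; bar length is the length of the gene and thin lines are 95% confidence intervals. Klra17 and Gm15854 are the bars below 0, whereas Klra10 and Klra1 lie near 0 among genes that are higher in TNFR2 KO cells.

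The promoter windows of most members held a common element. RefSeq's windows cover 250 bases before to 50 bases after an annotated start (GRCm38.p6), and all 10 members matched. The letters GGAGGGGCAGAA, read from the window of Klra8 and searched on both strands, occurred exactly in the windows of Klra3, Klra4, Klra5, Klra6, Klra8, Klra9 and Klra17 and in 0.0548% of 32851 windows of the genome. With up to 2 differing bases allowed, a window of Klra7, the window of Klra2 and 8.96% of all windows held them too. A further window of Klra7 (chr6:130231638-130231937) did not. The place of the element varied: counted from the annotated start, it began at -55 for Klra8, at -13 for Klra9 and at 6 for Klra3. The element was found by reading the members' windows after their values had been seen, so these counts are a description. The 30 bases around it are shown for members that rose, for Klra17 and for Klra2, with the element in capitals and all on the minus strand.
Klra8, chr6:130129933-130129962: tggtcaagaGGAGGGGCAGAAaaacatgag
Klra4, chr6:130067305-130067334: tggtcaagaGGAGGGGCAGAAaaccatgag
Klra5, chr6:129913269-129913298: agataaagaGGAGGGGCAGAAaatcatgag
Klra7, chr6:130233366-130233395: tgatgaagaGGAGGAGCATAAaatcatgag
Klra17, chr6:129876700-129876729: ggtcaaggaGGAGGGGCAGAAaatcatgag
Klra2, chr6:131247388-131247417: agatcaagaGGAGGGGCCGAAtgttatgag
It was not found in the windows of Klra1 and Klra10, which had the smallest log2-fold changes in size, but it was in those of Klra17 and Klra2, which were lower. Counted along the spliced transcript, the annotated starts of Klra10 and Klra1 lie 6 and 576 bases before the first codon. This count, which uses GENCODE starts and leaves out introns, is 50 to 163 bases for the members with the element. The windows are placed on RefSeq starts, which can differ from these. The window of Klra3 (chr6:130337577-130337876) lies wholly before its GENCODE start at 130337574. On the chromosome, Klra10 starts at 130281928 with its first codon at 130281922, and Klra1 at 130386874 with 130380662. Klra8, which has the element, starts at 130129898 with its first codon at 130128160. The windows of Klra10 and Klra1 thus lie at other distances from the first codon than that of Klra8. Whether these 2 genes lack the element was not tested. Of 7 further motifs searched on both strands, the RUNX core ACCACA and the T-box letters TCACAC each occurred in the window of Klra1 alone among the members (in 16.8% and 14.5% of all windows). The TCF core CTTTGA occurred in those of Klra6 and Klra7 (16% of all windows) and the GATA core AGATAA in those of Klra5 and Klra7 (11.2%). The ETS letters CCGGAAG (8.86%), the CRE letters TGACGTCA (1.79%) and a 10-base NF-kB motif (20.7%) were in no member's window.

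Genes that act with the receptors were described from lists. Of 11 ligand genes, 1 was called higher and 1 lower, where 1.56% and 11.8% of all genes were, with a median log2-fold change of 0.24. At an adjusted p under 0.05 alone, 8 were higher and 1 was lower (24.2% and 26.2% of all genes). The called genes were H2-Q7, a class Ib MHC gene (620 and 625 CPM in wild-type cells against 1572 and 1588 CPM in TNFR2 KO cells, log2-fold change 1.34 ± 0.0217; 0.57 under the NK lineage total and 0.68 under its medians, not called there), and Plau, which encodes urokinase, a reported ligand of Ly49E (22.1 and 19.7 against 3.34 and 3.59 CPM, -2.60 ± 0.112). H2-K1 and H2-D1, which encode the class I ligands H-2K and H-2D, were higher by log2-fold changes of 0.62 and 0.24 under TMM and were at -0.05 and -0.43 with the scaling on NK lineage medians.

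Of 23 genes of activating signalling, none was called higher and 3 were called lower, with a median of 0.13. The shares over all genes were 1.56% and 11.8%, and the 3 lower genes are near the latter share. Tyrobp, which encodes DAP12, the adaptor of Ly49H and Ly49D, was at 390 and 400 CPM in wild-type cells against 734 and 687 CPM in TNFR2 KO cells. Its log2-fold change of 0.85 ± 0.0317 (edgeR adjusted p = 3.65e-10) was under the fold threshold, and it was 0.07 under the NK lineage total and 0.18 under its medians. The kinase gene Lck, the other most abundant gene of the list, had a log2-fold change of 0.31 (-0.35 with the scaling on NK lineage medians). The called genes were Lyn (-1.02 ± 0.0327), the exchange factor gene Vav2 (-1.04 ± 0.0763; -0.96 and not called without WT replicate 2) and Card9 (-3.11 ± 0.126), of which Lyn and Card9 are known from myeloid cells. None of the 9 genes of inhibitory signalling was called with edgeR in either direction (median 0.14). At an adjusted p under 0.05, 5 were higher and 1 was lower (24.2% and 26.2% of all genes). Csk, an inhibitory kinase, and Inpp5d, which encodes the phosphatase SHIP-1, had log2-fold changes of 0.14 and 0.15, which became -0.52 and -0.51 with the scaling on NK lineage medians.

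Of 23 transcription factor genes linked to NK cells or to Ly49 expression, 1 was called lower and none higher (median 0.17), where 11.8% and 1.56% of all genes were. The called gene was Ikzf2, which encodes Helios, at 14.9 CPM in both wild-type libraries and 6.70 and 5.87 CPM in TNFR2 KO cells (log2-fold change -1.24 ± 0.107, edgeR adjusted p = 1.06e-06). The abundant factor genes Ikzf1 and Ets1 had log2-fold changes of 0.20 and 0.29, with -0.47 and -0.38 under the scaling on NK lineage medians. Of the NK marker genes, Eomes was at 220 ± 0.168 CPM in wild-type cells against 355 ± 0.783 CPM in TNFR2 KO cells, for a log2-fold change of 0.69 that was -0.08 with the scaling on the NK lineage total.

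The other killer lectin-like receptor genes were also higher in TNFR2 KO cells under TMM scaling. Of 14 tested, 7 were called higher and none lower, where 1.56% and 11.8% of all genes were. All 14 were higher at an adjusted p under 0.05 (24.2% of all genes). The median log2-fold change was 1.01, with a range from 0.62 to 1.70. Klrb1c, which encodes NK1.1, was at 186 and 185 CPM in wild-type cells against 516 and 527 CPM in TNFR2 KO cells, for a log2-fold change of 1.49 ± 0.0259. Klrb1b and Klrd1, which encodes CD94, had log2-fold changes of 1.45 ± 0.0486 and 1.07 ± 0.0274. Klrk1 (NKG2D) and Klrg1, the most abundant of the list by CPM, were higher by 0.81 ± 0.0241 and 0.78 ± 0.0256. Under the NK lineage total Klrb1c, Klrb1b and Klrd1 were at 0.72, 0.67 and 0.30, none of them called, and Klrk1 was at 0.03. With the scaling on the NK lineage total 8 were higher and 2 lower at an adjusted p under 0.05 (1.06% and 86.8% of all genes). With the scaling on NK lineage medians the median of this list was 0.35, beside 0.50 for the Ly49 members. The difference between the lists was not tested.

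Among 8754 other genes whose mean reached 10 CPM, those whose log2 CPM profile over the 4 libraries lay nearest to that of the summed members were Khdc1a, Tnfsf12, Gm4956, Itgax and Gzma, at Euclidean distances of 0.0275 to 0.0808 after centring. Khdc1a and Gzma belong to the NK lineage list used for scaling, and Itgax to the dendritic cell and class II list. Khdc1a was at 47.1 and 45.7 CPM in wild-type cells against 103 and 101 CPM in TNFR2 KO cells. Gzma, which encodes the abundant cytotoxic protease granzyme A, was at 5831 and 5779 CPM against 12390 and 12140 CPM. With 4 libraries in 2 genotypes, this measure mostly ranks genes by how close their fold change was to that of the family.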

How the data were processed

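Poly-A selected, stranded libraries were sequenced as 100-base read pairs. Per the study's methods and the submitters' processing notes, the authors trimmed reads with Trimmomatic 1.4, assigned them to mm10 transcripts with kallisto 0.46.1 and used Tximport to reach the gene level. The authors deposited these estimated counts per gene symbol, unscaled. The sources used here do not give the transcript annotation. A row without a gene name, 0.0559% to 0.0728% of a library, was left out.

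Counts were rounded, scaled with TMM and tested with edgeR 4.0.16 (R 4.3.3; filterByExpr, minimum count 10) with genotype as the only term. A gene counted as called with an adjusted p below 0.05 together with a log2-fold change beyond 1 in size. With 2 libraries against 2, an exact permutation test cannot give a p under 0.333, so none was used. Steps were tested on simulated data. Per the labels, same-numbered libraries came from the same pooled spleens; the correlation of their deviations from group means was 0.0487.

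Members and gene lists were chosen with earlier results of these data known. Named in the text are the members, other Klra rows, Tnfrsf1b, tested genes within 200 kb of the members, fixed markers, the 5 nearest profiles and, per pathway list, the 2 most abundant genes and up to 3 called genes with the smallest adjusted p. A fixed marker is not reported here. Positions and coding sequences came from GENCODE M21, and 13340 tested genes matched it by symbol. Alternatives were DESeq2's size factors, library size alone, scaling on 36 NK lineage genes, DESeq2 1.42.0, no filter, a minimum mean of 10 CPM, pairing by replicate number (the replicate block) and each library left out.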

Additional observations from a re-analysis of the deposited data

How the results depend on the processing

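Tnfrsf1b and the log2-fold changes of Klra3 to Klra9 and Klra17 kept their direction under every alternative that gave them a value, and the number of members called higher was also 6 with DESeq2, DESeq2's size factors, library size alone, no filter, the minimum mean of 10 CPM and the replicate block. The members, the other Klra rows and the other named genes, 53 in all, had 0 changes of call under the replicate block, in which 1830 of all genes were called. Without each library in turn, the count was again 6 members higher and 1 lower, Klra10 ranged from -0.05 (without WT replicate 2) to 0.28, and the summed level had a log2 ratio from 1.15 to 1.18. The alternatives that left out a library leave 1 sample in a group, which is then assumed to vary like the others.

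Scaling on the total and on the medians of the NK lineage genes moved most values. The number of members called higher became 0 under both, and the log2 ratio of the summed level became 0.39 and 0.49 (1.10 with library size alone). All genes called higher became 30 and 43, and all called lower 3728 and 3110. The values that changed sign under the total and the medians, in this order, were -0.40 and -0.30 for Klra1, -0.68 and -0.57 for Klra10, -0.15 and -0.05 for Klra11-ps, -0.54 and -0.43 for H2-D1, -0.16 and -0.05 for H2-K1, -0.46 and -0.35 for Lck, -0.63 and -0.52 for Csk, -0.62 and -0.51 for Inpp5d, -0.58 and -0.47 for Ikzf1, -0.48 and -0.38 for Ets1, -0.15 and -0.04 for Klri2 and -0.34 and -0.23 for Il2rb. Under the total alone they were -0.08 for Klrc3, -0.01 for Klri1 and -0.08 for Eomes. The cause was not tested beyond the shift of the median gene that these scalings bring.

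The number of genes called in either direction changed in the same way for the lists. Under the total and the medians it was 1 and 1 of the ligands, 1 and 1 of the inhibitory signalling genes, 2 and 2 of the transcription factors, 0 and 2 of the other Klr receptors, 0 and 0 of the NK lineage genes, 7 and 7 of the plasmacytoid dendritic cell markers, 1 and 1 of the B cell markers, and 5 and 2 of the T cell markers, and the total alone gave 5 of the activating signalling genes. With the minimum mean of 10 CPM, Klra17 was not tested, so that 0 members were called lower, all genes called were 58 higher and 420 lower, and 3 erythroid, 1 platelet and 0 stromal markers were called, since fewer genes were tested. Stromal markers, of which 3 were called lower, were 1 with the DESeq2 test, 2 with no filter, 2 with the replicate block and 1 to 2 with a library left out. Klra17, at 46 to 230 counts per library, rests on the fewest counts of the members.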
